A study of Homo sapiens with 24 samples.

Results

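SW872 cells, an established human liposarcoma line, carried either an empty retroviral vector (EV) or TAZ4SA, a Flag-tagged full-length TAZ in which the serines that the LATS kinases phosphorylate were changed to alanine. TAZ4SA is therefore a form of TAZ that high cell density should not switch off. The comparison used 3 libraries labelled TAZ4SA and 3 EV libraries, all collected 48 h after the cells reached confluence, out of 24 libraries in the series. Each line was a pool of cells kept after drug selection, not a clone, and the study's methods state that replicates came from separate transductions and selections. The members are those genes that averaged 5 counts or more across these 6 libraries, which left 19627 of the 60279 genes listed. Of these, 673 had a mean under 5 counts in the EV group and 638 in the TAZ4SA group. These 1311 genes passed the filter through 1 group alone, which favours a higher level in that group. YAP5SA, the corresponding mutant of the TAZ paralogue YAP (3 libraries, also 48 h after confluence), served as the nearest neighbour for a direct test, and EVsub is the same empty vector line collected before confluence.

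TAZ, encoded by WWTR1, and YAP are transcriptional coactivators at the end of the Hippo pathway. In crowded cells the kinases MST and LATS phosphorylate both proteins, which are then held in the cytoplasm or degraded. Unphosphorylated TAZ and YAP enter the nucleus and bind TEAD factors, which recognise the short sequence GGAATG, often near sites of the AP-1 factors FOS and JUN. Their textbook targets include secreted CCN proteins, cytoskeletal genes and several of the pathway's own inhibitors.

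The upstream sequences of 2 of these targets are shown because their TEAD cores carry the best known part of the TAZ response. The bases before the transcription start come from RefSeq (GRCh38.p14), 5′ to 3′ on the strand of the gene, and GGAATG or its reverse complement CATTCC is in capitals.
ANKRD1, chr10:90921088-90921337, minus strand: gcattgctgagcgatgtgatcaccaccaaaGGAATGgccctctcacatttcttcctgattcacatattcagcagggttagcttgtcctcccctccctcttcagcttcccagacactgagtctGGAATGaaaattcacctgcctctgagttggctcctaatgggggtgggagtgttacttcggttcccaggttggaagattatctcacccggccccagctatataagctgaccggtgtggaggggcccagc
CCN2, chr6:131951373-131951622, minus strand: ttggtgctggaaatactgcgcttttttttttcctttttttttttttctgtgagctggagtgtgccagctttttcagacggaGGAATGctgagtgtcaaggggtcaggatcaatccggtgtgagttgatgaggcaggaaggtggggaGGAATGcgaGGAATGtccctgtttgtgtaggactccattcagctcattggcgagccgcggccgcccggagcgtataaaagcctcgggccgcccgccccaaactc
ANKRD1 held 2 TEAD cores, starting 220 and 128 bases before the start, and CCN2 held 3, starting 169, 104 and 95 bases before it. In windows from 250 bases before to 50 bases after the start, 9 of 18 windows of the YAP/TAZ target signature held the core, as did 14.8% of 1563 windows of genes called at least 2-fold higher, 14.01% of 1206 windows of genes called at least 2-fold lower and 11.7% of all 17070 windows of protein-coding genes tested. The AP-1 site TGANTCA stood in 9.28%, 6.22% and 5.52% of the last 3 sets. The 18 windows came from 16 of the 22 signature genes, the 1563 from 1009 genes, the 1206 from 794 and the 17070 from 11659. A gene with several starts counts more than once, and a gene without a promoter entry has no window. These shares are descriptions without a test, and a match is not a bound site.

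A second set of promoters is shown for the amino acid response described below. Here the capitals mark TGATGNAA or its reverse complement, the core of the element bound by ATF4 together with C/EBP factors, a motif chosen after the values were seen.
CHAC1, chr15:40953221-40953470, plus strand: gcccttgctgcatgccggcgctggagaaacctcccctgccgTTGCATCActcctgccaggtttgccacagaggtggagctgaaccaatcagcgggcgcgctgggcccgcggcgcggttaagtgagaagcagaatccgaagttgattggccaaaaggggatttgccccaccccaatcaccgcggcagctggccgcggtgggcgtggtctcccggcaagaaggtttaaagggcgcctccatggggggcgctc
ASNS, chr7:97872409-97872658, minus strand: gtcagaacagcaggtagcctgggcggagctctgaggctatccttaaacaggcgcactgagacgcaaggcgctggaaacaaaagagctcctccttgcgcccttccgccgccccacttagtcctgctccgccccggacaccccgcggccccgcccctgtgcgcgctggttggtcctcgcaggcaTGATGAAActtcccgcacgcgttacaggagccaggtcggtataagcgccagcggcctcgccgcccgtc
AARS1, chr16:70289507-70289756, minus strand: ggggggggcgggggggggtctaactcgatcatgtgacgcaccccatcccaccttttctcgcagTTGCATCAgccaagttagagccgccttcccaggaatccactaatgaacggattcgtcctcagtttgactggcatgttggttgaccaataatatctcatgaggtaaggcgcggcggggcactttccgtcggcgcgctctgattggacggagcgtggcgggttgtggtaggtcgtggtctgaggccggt
The element began 209 bases before the start in CHAC1, 68 in ASNS and 187 in AARS1. It stood in 5 of 30 windows of the ATF4 response list (16.7%), in 7 of 27 windows of aminoacyl-tRNA synthetase genes (25.9%), in 4.22% of windows of genes called at least 2-fold higher, in 2.82% of those at least 2-fold lower and in 2.14% of all windows tested. The 30 windows came from 20 of the 25 genes listed, and the 27 from 19 of 23.

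The RNA count of the construct's gene went against the label. The paper reports Western blots of the Flag-tagged TAZ4SA protein in SW872 cells, which RNA counts do not measure. WWTR1 (ENSG00000018408, chr3:149517235-149736714, minus strand) stood at 225, 203 and 184 CPM in the EV libraries and 134, 133 and 134 CPM in the libraries labelled TAZ4SA, where CPM stands for counts relative to a library's TMM-scaled total. All 3 libraries labelled TAZ4SA lay below all EV libraries, with a log2 fold change of -0.61 ± 0.08 (SE) and an adjusted p of 7.7e-07 by edgeR's quasi-likelihood test. The level was nevertheless above that in YAP5SA (68.6 ± 1.73 CPM, mean ± SD, n = 3) by 0.96 ± 0.08 on the log2 scale (adjusted p = 2.3e-08, edgeR). Counts per gene do not separate the transgene from the cell's own WWTR1, and an antisense gene shares exonic bases with it, so how much of each group's WWTR1 came from the construct was not tested. For other full-length constructs the gene's mean was higher: YAP1 at 253 CPM in YAP5SA against 128 in EV, and TFE3 at 337 in TFE3 libraries against 119 in EV. CAMTA1 was at 124 CPM in CAMTA1 libraries against 22.9 in EVsub. In libraries of the TAZ-CAMTA1 fusion WWTR1 averaged 181 CPM, against 204 in EV. YAP1 was at 141, 127 and 116 CPM in the EV libraries and 91, 101 and 109.6 CPM in the libraries labelled TAZ4SA, a log2 fold change of -0.35 ± 0.10 (adjusted p = 0.0057, edgeR) that was no longer called without TAZ4SA replicate 1. The libraries are called by their labels below.

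Total counts ran from 19700277 to 26984451 in EV and from 25810263 to 27653531 in TAZ4SA. TAZ4SA replicate 3 stood apart from the other TAZ4SA libraries: the chi-square per degree of freedom over genes was 20.5 and 14.4 against replicates 1 and 2, and 3.33 between those, while EV pairs gave 7.31 to 13.3. Mitochondrial transcripts took 4.11% to 4.73% of counts in TAZ4SA and 5.09% to 5.43% in EV. Counts of each list are given with and without TAZ4SA replicate 3 where they differ by over 1.5 times. VIM, the mesenchymal intermediate filament, stood between 739 and 1144 CPM in all 6 libraries, while 6 of 8 blood cell markers stayed under 1 CPM throughout.

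The groups differed over much of the transcriptome. At an adjusted p under 0.05, edgeR called 9902 of 19627 genes (50.5%), of which 5012 were higher (25.5%) and 4890 lower (24.9%) in TAZ4SA. These percentages are the background for every list below. The changes were mostly small: the median log2 fold change of all genes was -0.03, the quartiles were -0.45 and 0.38, and 35.0% of called genes differed at least 2-fold (1878 higher, 1585 lower). Among the 18316 genes that averaged 5 counts or more in both groups, 24.6% were higher and 24.9% lower. Scaling to total counts in place of TMM moved the median of all genes by -0.19 and the calls to 3460 higher and 7257 lower, so a list median between 0 and 0.19 changes sign under that scaling. Against YAP5SA, 1472 genes were called (7.5%).

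Across lists of genes with a shared role, the counts ranged from 24 of 25 tested genes higher and 0 lower in the ATF4 response to 14 of 239 higher and 131 lower among zinc finger genes of chromosome 19.

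**Figure D1:**
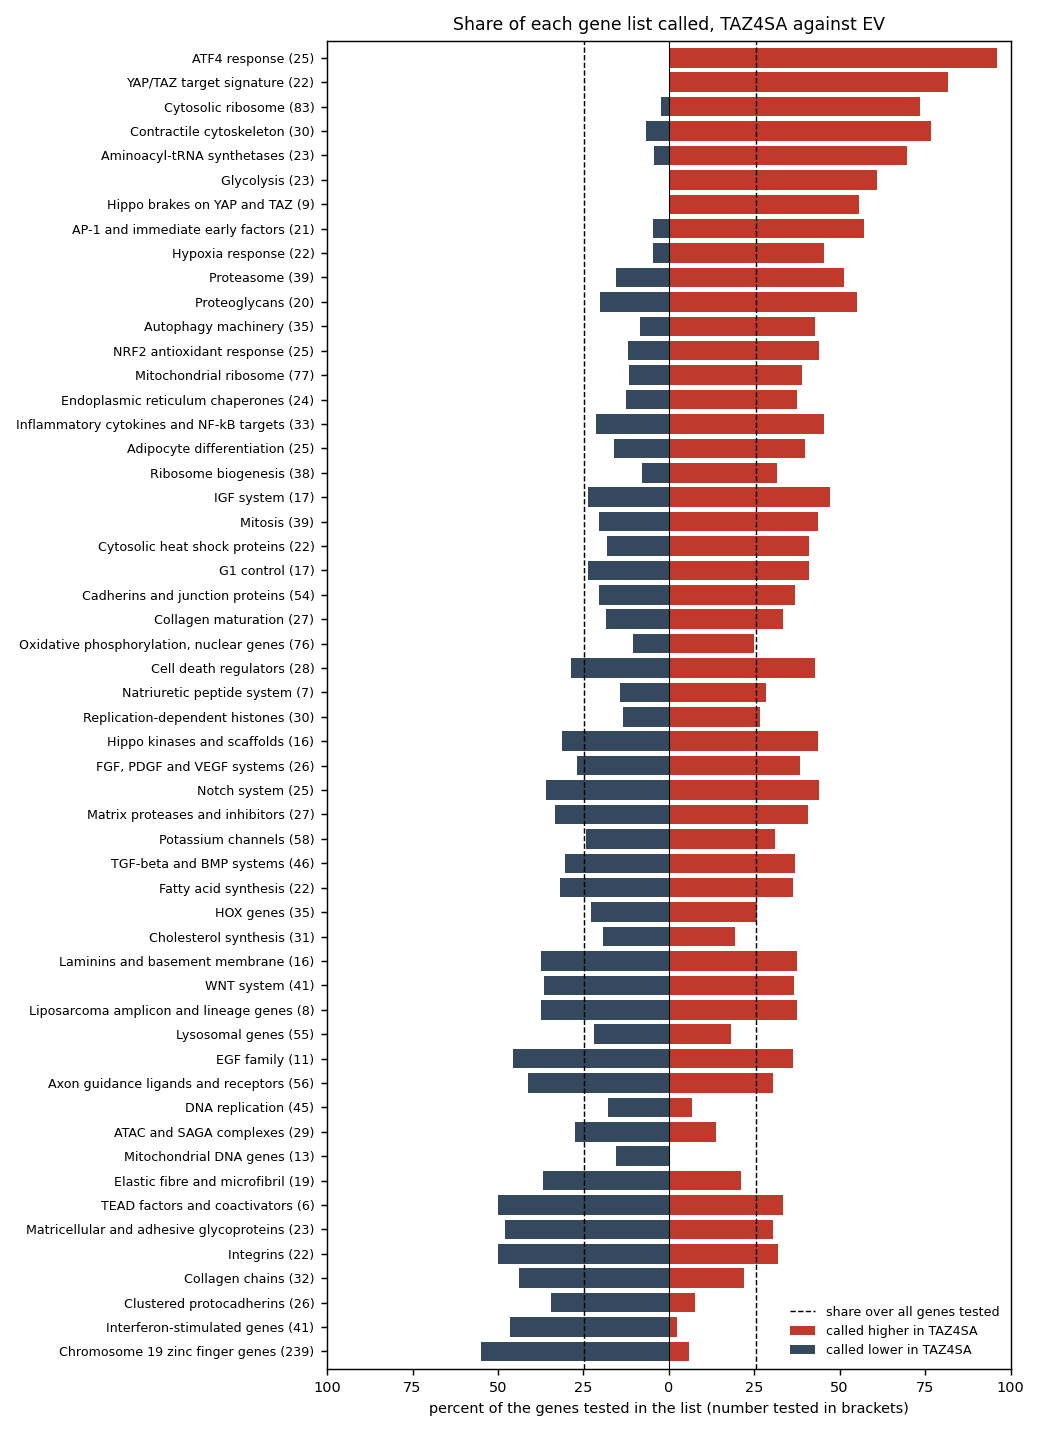
Each row is a gene list, with the number of genes tested in brackets. Bars show the percent of those genes called higher (right, red) or lower (left, dark) in TAZ4SA against EV at an adjusted p under 0.05 (edgeR), and the dashed lines mark the shares over all genes tested, 25.5% and 24.9%. The ATF4 response, the target signature and the cytosolic ribosome stand at the top, and interferon-stimulated and zinc finger genes at the bottom.

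Within the Hippo pathway itself, 9 tested genes were listed as brakes on YAP and TAZ, of which 5 rose and 0 fell, with a median log2 fold change of 0.89. AMOTL2, a junctional angiomotin that holds YAP and TAZ in the cytoplasm, was at 21.1, 20.4 and 21.1 CPM in the EV libraries and 343, 340.04 and 327 CPM in the libraries labelled TAZ4SA, and the groups were far apart (log2 fold change 4.01 ± 0.11, adjusted p = 4.6e-18, edgeR). PTPN14 (0.78), a phosphatase that binds YAP, rose too. The other 3 risen genes, the LIM proteins AJUBA (2.696), WTIP (1.85) and LIMD1 (0.89), are known to inhibit LATS, a role opposite to the name of the list. Of 16 kinases and scaffolds, 7 rose and 5 fell (6 and 7 under total-count scaling). The scaffold WWC1 (KIBRA) stood at 4.8, 5.33 and 4.94 CPM in the EV libraries and 30.2, 30.6 and 30.7 CPM in the libraries labelled TAZ4SA, without overlap, a log2 fold change of 2.601 ± 0.17 (adjusted p = 1.7e-11, edgeR). LATS2 was at 11.2, 10.3 and 10.8 CPM in the EV libraries and 37.8, 41.3 and 39.2 CPM in the libraries labelled TAZ4SA and rose by 1.87 ± 0.12 (adjusted p = 6.2e-12, edgeR), while its paralogue LATS1 fell by 0.50 on the log2 scale. NF2 (merlin, 1.57), WWC2 (1.55) and WWC3 (1.47) rose, and MAP4K4 (-0.64), TAOK1 (-0.64) and the MOB1 genes MOB1A (-0.36) and MOB1B (-0.71) fell. The count of fallen genes dropped to 3 without TAZ4SA replicate 1, TAZ4SA replicate 2 or EV replicate 1, since MOB1A and MOB1B were then not called, and MOB1A changed sign with offsets for GC content and length.

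TEAD4 was the TEAD gene with the largest difference, at 21.3, 22 and 23.2 CPM in the EV libraries and 59.8, 55.2 and 54.9 CPM in the libraries labelled TAZ4SA (log2 fold change 1.35 ± 0.11, adjusted p = 2.4e-10, edgeR). TEAD1, at 248, 214 and 201 CPM in the EV libraries and 188, 194 and 242 CPM in the libraries labelled TAZ4SA, was not called (-0.09 ± 0.13), and its groups overlapped. Of the 22 genes of the target signature, all tested, 18 rose and 0 fell, with a median of 1.65. The list was compiled elsewhere as a readout of YAP and TAZ activity. ANKRD1 (ENSG00000148677, chr10:90912096-90921087, minus strand), whose protein shuttles between sarcomere and nucleus, was at 1.59, 0.838 and 0.824 CPM in the EV libraries and 224, 254 and 276 CPM in the libraries labelled TAZ4SA, and CCN2 (ENSG00000118523, chr6:131948176-131951372, minus strand), a secreted matrix regulator, at 26.6, 20.7 and 16.5 CPM in the EV libraries and 627, 599 and 549 CPM in the libraries labelled TAZ4SA. For both, the lowest TAZ4SA library lay many times above the highest EV library (log2 fold changes 7.81 ± 0.40 and 4.79 ± 0.21). ARHGEF17, RBMS3, IGFBP3 and FJX1 were the 4 genes of the list not called.

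**Figure D2:**
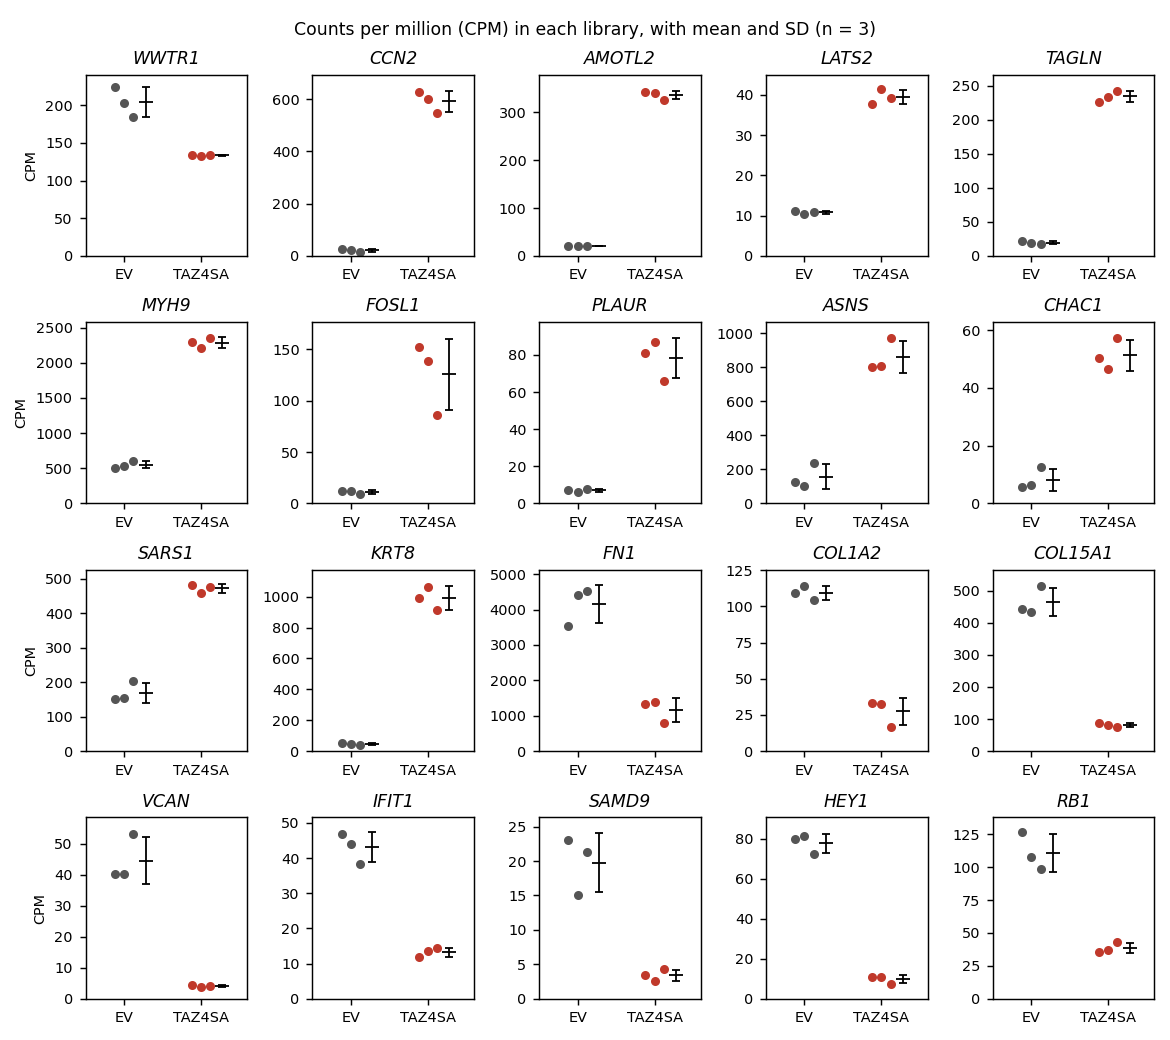
CPM (linear axis from 0) of 20 genes in each of the 3 EV (grey) and 3 TAZ4SA (red) libraries, with the mean and SD beside the points. Within each panel the 2 groups do not overlap. WWTR1 is lower in TAZ4SA, at 133 to 134 CPM against 184 to 225 CPM.

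Genes of the contractile cytoskeleton moved largely in 1 direction. Of 30 tested of 34 listed, 23 rose and 2 fell (the same counts without TAZ4SA replicate 3), with a median log2 fold change of 0.81. TAGLN, an actin-bundling protein of smooth muscle, was at 21.6, 18.7 and 16.9 CPM in the EV libraries and 226, 234 and 243 CPM in the libraries labelled TAZ4SA (log2 fold change 3.62 ± 0.21, adjusted p = 2.2e-12, edgeR). Non-muscle myosin heavy chain MYH9 was at 508, 534 and 610.02 CPM in the EV libraries and 2292, 2212 and 2359 CPM in the libraries labelled TAZ4SA, a change of 2.05 ± 0.10 with no overlap (adjusted p = 1.1e-13, edgeR). Filamins FLNC (1.79) and FLNA (1.51), alpha-actinins ACTN4 (1.71) and ACTN1 (1.33), tropomyosin TPM1 (1.501), the kinase MYLK (1.397) and the transcription factor SRF (0.79) rose as well. The smooth muscle actin gene ACTA2 did not follow: it was at 1.79, 1.79 and 1.89 CPM in the EV libraries and 1.44, 1.75 and 1.8 CPM in the libraries labelled TAZ4SA and overlapped between groups (-0.13 ± 0.20). MYH10 (-0.23) and CSRP1 (-0.57) fell.

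AP-1 and other immediate early genes were also mostly higher, 12 of 21 against 1 lower. FOSL1 (FRA-1) was at 12.1, 12 and 9.45 CPM in the EV libraries and 152, 138 and 86 CPM in the libraries labelled TAZ4SA, where TAZ4SA replicate 3 was the lowest of its group yet above every EV library (log2 fold change 3.48 ± 0.33, adjusted p = 5.7e-09, edgeR). JUN (1.81), FOSL2 (1.26), MAFF (2.495) and the phosphatase DUSP1 (2.68) rose. In contrast, 8 genes of the list were not called, among them EGR1 (0.56 ± 0.54), FOS (-0.52) and FOSB (-0.27). DUSP6, a phosphatase induced by ERK signalling that dampens it in turn, was the fallen gene, at 97.9, 95.9 and 93.8 CPM in the EV libraries and 29.8, 31.5 and 27.8 CPM in the libraries labelled TAZ4SA.

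The ATF4 response had the highest share of risen genes of all lists. ATF4 is the transcription factor of the integrated stress response and drives amino acid uptake and synthesis. All 25 genes listed were tested, 24 rose and 0 fell, the median log2 fold change was 1.795, and the counts were the same without TAZ4SA replicate 3. ATF4 mRNA itself was at 373, 373 and 469 CPM in the EV libraries and 935, 929.7 and 920.02 CPM in the libraries labelled TAZ4SA (log2 fold change 1.196 ± 0.09, adjusted p = 2.1e-10, edgeR). ASNS, asparagine synthetase (ENSG00000070669, chr7:97851677-97872542, minus strand), was at 129, 104 and 239 CPM in the EV libraries and 802, 809 and 971 CPM in the libraries labelled TAZ4SA, with EV replicate 3 highest in its group and still well below the TAZ4SA libraries (2.45 ± 0.27, adjusted p = 8.1e-08, edgeR). CHAC1, which degrades glutathione, was at 5.76, 6.32 and 12.5 CPM in the EV libraries and 50.3, 46.5 and 57.1 CPM in the libraries labelled TAZ4SA (2.67 ± 0.34). EV replicate 3 was the highest of its group in both genes, and the sub-confluent EVsub group stood lower, at 40.4 ± 0.217 CPM for ASNS and 1.82 ± 0.254 CPM for CHAC1 (mean ± SD, n = 3).

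The members of this list covered several steps. Among transporters, SLC7A5 (2.32) and its partner SLC3A2 (1.88), SLC7A1 (1.81) and the cystine carrier SLC7A11 (1.87) rose, whereas SLC38A2 was the gene not called (-0.17 ± 0.11). Serine synthesis and folate genes rose through PHGDH (1.78), PSAT1 (2.04), PSPH (0.66), SHMT2 (1.76) and MTHFD2 (1.61). Regulators rose through DDIT3 (CHOP, 1.81), TRIB3 (2.13), ATF3 (2.39), SESN2 (1.21) and DDIT4 (1.198). The secreted stress cytokine GDF15, named after its values were seen because its mean count was under 100, was at 0.518, 0.457 and 0.388 CPM in the EV libraries and 5.67, 4 and 8.71 CPM in the libraries labelled TAZ4SA (3.73 ± 0.53).

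Aminoacyl-tRNA synthetase genes, several of which are ATF4 targets, fell into 2 ranges. Of 23 tested, 16 rose and 1 fell (RARS1, -0.23, not called without EV replicate 2). CARS1, SARS1, WARS1, GARS1, MARS1, AARS1, IARS1 and YARS1 had log2 fold changes from 1.19 to 1.49, and the other 15 genes lay at or below 0.55 (NARS1). SARS1, which charges serine tRNA, was at 152, 154 and 202 CPM in the EV libraries and 480.01, 458 and 476 CPM in the libraries labelled TAZ4SA (1.48 ± 0.13, adjusted p = 1.6e-09, edgeR). In the endoplasmic reticulum, 9 of 24 chaperone and quality control genes rose and 3 fell (1 without EV replicate 3), an order that turned to 5 higher and 8 lower under total-count scaling (median -0.07). HSPA5 (BiP), the chaperone usually followed as a sign of unfolded protein stress, was at 1097, 1198 and 1176 CPM in the EV libraries and 1836, 1928 and 2160.1 CPM in the libraries labelled TAZ4SA, a change of 0.77 ± 0.11 (adjusted p = 2.7e-06, edgeR), and HERPUD1 gave 0.89. Genes of the NRF2 antioxidant response did not share a direction: TXNRD1, thioredoxin reductase, was at 328, 315 and 314 CPM in the EV libraries and 1200.4, 1317 and 1569 CPM in the libraries labelled TAZ4SA (2.09 ± 0.17), whereas NQO1 was at 649, 764 and 769.5 CPM in the EV libraries and 389, 373 and 357 CPM in the libraries labelled TAZ4SA (-0.96 ± 0.14) and HMOX1 was not called (-0.29 ± 0.14). Of 25 tested, 11 were higher and 3 lower, and 7 were higher without EV replicate 1. Under total-count scaling 5 were higher and 9 lower.

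**Figure D3:**
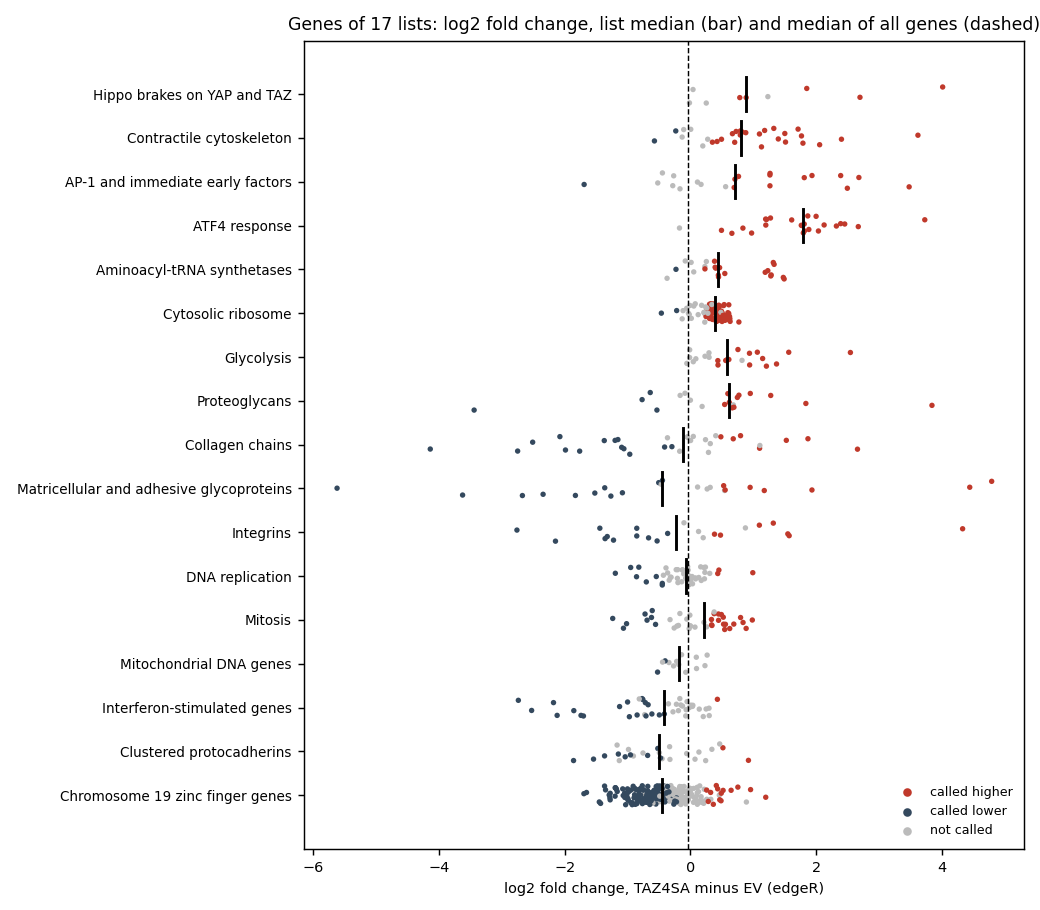
Log2 fold changes (TAZ4SA minus EV, edgeR) of every tested gene in 17 lists, coloured by call. The black bar is the list median and the dashed line the median of all genes tested (-0.03). Genes of the ATF4 response centre on 1.80, synthetases show a separate upper group between 1.19 and 1.49, matrix lists spread to both sides, and zinc finger genes centre on -0.46.

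The cytosolic ribosome moved by small amounts in 1 direction. Of 83 tested genes, 61 rose and 2 fell, with a median log2 fold change of 0.39. Under total-count scaling 38 rose and 5 fell, with a median of 0.20. RPSA was at 1396, 1567 and 1480.2 CPM in the EV libraries and 2490.1, 2359 and 1989 CPM in the libraries labelled TAZ4SA (0.62 ± 0.13), without overlap. Ribosomal protein genes have many processed pseudogenes, and how reads shared with these copies were counted is not given in the sources used here, so single values are uncertain. The 2 fallen genes were RPL7 and RPS10, and at most 1 of them was called without TAZ4SA replicate 1, 2 or 3 or EV replicate 1 or 2. Mitochondrial ribosome genes gave 30 higher and 9 lower of 77, and nuclear genes of oxidative phosphorylation 19 higher and 8 lower of 76. The oxidative phosphorylation share called higher did not exceed the 25.5% over all genes tested, and the share called lower was below 24.9%. The order of higher and lower calls turned in both lists under total-count scaling, to 16 higher and 23 lower and to 7 higher and 23 lower. The count of 19 fell to 11 without EV replicate 1, and the count of 8 to 5 without TAZ4SA replicate 3 or EV replicate 2. Of the 13 mitochondrial DNA genes, 0 rose and 2 fell, which became 0 without TAZ4SA replicate 3 and 1 without any other single library.

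Glycolysis had 14 of 23 genes higher and 0 lower, with a median of 0.58. ENO2, a neuronal enolase isoform, was at 10.9, 11.8 and 12.9 CPM in the EV libraries and 68.6, 82 and 57 CPM in the libraries labelled TAZ4SA (2.54 ± 0.22, adjusted p = 1.1e-09, edgeR), and PFKP, phosphofructokinase, at 78.5, 78.5 and 79.4 CPM in the EV libraries and 243, 240.01 and 215 CPM in the libraries labelled TAZ4SA (1.56 ± 0.11). The glucose carriers SLC2A1 (1.15) and SLC2A3 (1.21), the lactate exporter SLC16A3 (1.37) and hexokinase HK2 (1.06) rose, while LDHA (0.30 ± 0.18), PKM (0.09 ± 0.13) and LDHB (-0.01 ± 0.09) were not called. A list of hypoxia-induced genes gave 10 higher and 1 lower of 22 (2 lower without TAZ4SA replicate 2 or EV replicate 3). NDRG1 was at 97.2, 82.8 and 69.6 CPM in the EV libraries and 594, 724 and 469.6 CPM in the libraries labelled TAZ4SA (2.84 ± 0.29) and VEGFA at 29.8, 24 and 29.9 CPM in the EV libraries and 85.2, 93 and 102 CPM in the libraries labelled TAZ4SA (1.74 ± 0.28). CA9, a widely used hypoxia marker, was at 2.04, 0.952 and 0.097 CPM in the EV libraries and 8.62, 13.9 and 4.53 CPM in the libraries labelled TAZ4SA, and here the spread within each group was wide (3.03 ± 0.87, adjusted p = 0.0059, edgeR).

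Lipid genes had no common direction. Of 31 genes of cholesterol synthesis and its control, 6 rose and 6 fell (4 and 12 under total-count scaling). STARD4, a sterol carrier, was at 69.9, 58.8 and 51.3 CPM in the EV libraries and 21.8, 22.6 and 24.4 CPM in the libraries labelled TAZ4SA (-1.39 ± 0.14). Fatty acid synthesis gave 8 higher and 7 lower of 22 (5 and 10 under total-count scaling), among them FADS3 (1.899), FASN (0.60) and ELOVL6 (-1.23). Adipocyte differentiation genes gave 10 higher and 4 lower of 25. The fallen ones included the early lineage factor EBF1, at 40.2, 39.1 and 34.5 CPM in the EV libraries and 3.59, 3.49 and 3.38 CPM in the libraries labelled TAZ4SA (-3.44 ± 0.20), the lipase LPL, at 144, 170.5 and 105 CPM in the EV libraries and 41.6, 42.6 and 30.4 CPM in the libraries labelled TAZ4SA (-1.87 ± 0.16), and PPARG, the master regulator of fat cells, at 46.3, 51 and 42.9 CPM in the EV libraries and 27, 28.2 and 30.9 CPM in the libraries labelled TAZ4SA (-0.70 ± 0.14). CEBPB (1.24), KLF15 (1.65) and DGAT2 (0.64) rose.

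Transcripts of matrix genes went both ways. Of 32 tested collagen chains of 42 listed, 7 rose and 14 fell (9 and 11 without TAZ4SA replicate 3). COL15A1, a basement membrane zone collagen, was at 443, 435 and 516 CPM in the EV libraries and 87.2, 82.6 and 74.7 CPM in the libraries labelled TAZ4SA (-2.51 ± 0.23, adjusted p = 3.4e-09, edgeR). COL1A2, a chain of fibrillar collagen I, was at 109.6, 114 and 105 CPM in the EV libraries and 33.4, 32.7 and 17 CPM in the libraries labelled TAZ4SA, lowest in TAZ4SA replicate 3 (-1.99 ± 0.24), while COL1A1, at 24.3, 19.4 and 14 CPM in the EV libraries and 19.7, 17.5 and 7.86 CPM in the libraries labelled TAZ4SA, was not called and its groups overlapped (-0.37 ± 0.34). COL3A1 (-2.08), COL6A1 (-1.199) and COL5A3 (-1.76) fell, and COL8A1, at 33.2, 35.1 and 31.7 CPM in the EV libraries and 222, 245 and 164 CPM in the libraries labelled TAZ4SA (2.66 ± 0.18), COL13A1 (1.87) and COL12A1 (1.52) rose. Collagen-modifying genes gave 9 higher and 5 lower of 27, and 9 higher and 11 lower under total-count scaling. LOX, which cross-links collagen, was at 7.97, 6.59 and 6.45 CPM in the EV libraries and 39, 49.1 and 43.9 CPM in the libraries labelled TAZ4SA (2.65 ± 0.18, adjusted p = 2.5e-11, edgeR), and LOXL4 (1.69) and P4HA2 (1.00) rose.

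Adhesive glycoproteins gave 7 higher and 11 lower of 23, with a median of -0.45. FN1, fibronectin, was at 3547, 4403 and 4513 CPM in the EV libraries and 1327, 1398 and 781 CPM in the libraries labelled TAZ4SA and fell by 1.83 on the log2 scale (SE 0.23, adjusted p = 6.2e-07, edgeR), with TAZ4SA replicate 3 again the lowest. SPP1, osteopontin, was at 64.2, 63 and 49.9 CPM in the EV libraries and 10.8, 9.88 and 7.17 CPM in the libraries labelled TAZ4SA (-2.67 ± 0.23), and SPARCL1 (-3.62) and CCN3 (-2.34) fell in the same list in which CCN2, CCN1 (4.44) and THBS1 (1.93) rose. Proteoglycans gave 11 higher and 4 lower of 20 (2 lower without TAZ4SA replicate 1, TAZ4SA replicate 2 or EV replicate 1). VCAN, versican, was at 40.2, 40.4 and 53.2 CPM in the EV libraries and 4.51, 3.75 and 4.03 CPM in the libraries labelled TAZ4SA (-3.44 ± 0.24) and PRELP at 2.62, 2.32 and 1.5 CPM in the EV libraries and 39.6, 37.8 and 16.8 CPM in the libraries labelled TAZ4SA (3.84 ± 0.46), with TAZ4SA replicate 3 the lowest of its group. SDC4, a focal adhesion syndecan, rose by 1.84 ± 0.13 on the log2 scale (adjusted p = 4.0e-11, edgeR).

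Integrins, the receptors for these proteins, gave 7 higher and 11 lower of 22. ITGB2, a leukocyte integrin chain, was at 0.38, 0.762 and 0.533 CPM in the EV libraries and 11.1, 11.4 and 11.3 CPM in the libraries labelled TAZ4SA (4.33 ± 0.28), and the laminin-binding ITGA3 at 255, 279 and 342 CPM in the EV libraries and 882, 859 and 861 CPM in the libraries labelled TAZ4SA (1.57 ± 0.11). The fallen ITGA9, which binds tenascin and osteopontin, was at 92, 97.7 and 109 CPM in the EV libraries and 15.8, 16.1 and 12.1 CPM in the libraries labelled TAZ4SA (-2.76 ± 0.21), and the collagen receptor ITGA2 gave -1.44. Matrix proteases and inhibitors gave 11 higher and 9 lower of 27 (12 and 6 without TAZ4SA replicate 3). In the plasminogen system the urokinase receptor PLAUR was at 7.11, 6.32 and 8.05 CPM in the EV libraries and 80.9, 87.1 and 66.2 CPM in the libraries labelled TAZ4SA (3.45 ± 0.17) and urokinase PLAU at 34.3, 42.5 and 32.5 CPM in the EV libraries and 172, 145 and 104 CPM in the libraries labelled TAZ4SA (1.94 ± 0.18). The other activator, PLAT, went the opposite way, at 314, 447 and 314 CPM in the EV libraries and 121, 112 and 70.9 CPM in the libraries labelled TAZ4SA (-1.82 ± 0.19).

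Among secreted signals and receptors, calls went both ways in each family, as they did over all genes tested (25.5% higher, 24.9% lower). In the TGF-beta and BMP systems 17 of 46 rose (37.0%) and 14 fell (30.4%), and 14 and 15 under total-count scaling. Of the 44 that averaged 5 counts or more in both groups, 15 were higher and 14 lower. TGFB2 was at 40.8, 33.8 and 28.9 CPM in the EV libraries and 199.95, 227 and 227 CPM in the libraries labelled TAZ4SA (2.66 ± 0.14) and its paralogue TGFB3 at 23.8, 25.7 and 23.9 CPM in the EV libraries and 5.19, 4.69 and 4.14 CPM in the libraries labelled TAZ4SA (-2.39 ± 0.16). BMP4 was at 33.5, 26.8 and 30.5 CPM in the EV libraries and 177, 196 and 179 CPM in the libraries labelled TAZ4SA (2.602 ± 0.16), and BMP7 gave -2.26. INHBB, an activin subunit, had at most 3 counts in any EV library against 7.34, 9.93 and 7.56 CPM in TAZ4SA, at least 68.3-fold higher when EV is set to a floor of 3 counts per library. It averaged 5 counts or more in the TAZ4SA group alone, so the filter itself favoured this direction. In the FGF, PDGF and VEGF systems 10 of 26 rose (38.5%) and 7 fell (26.9%). PDGFB, a ligand for PDGF receptors, was at 0.276, 0.457 and 0.436 CPM in the EV libraries and 40.4, 40.5 and 33.5 CPM in the libraries labelled TAZ4SA (6.62 ± 0.26, adjusted p = 3.2e-15, edgeR), and the receptor PDGFRA at 47.2, 47 and 42.4 CPM in the EV libraries and 6.94, 6.99 and 6.64 CPM in the libraries labelled TAZ4SA (-2.73 ± 0.11). FLT4 (3.798) and KDR (-2.82), receptors for VEGF proteins, changed in opposite directions, and the co-receptors NRP1 (-2.02) and NRP2 (-1.89) fell.

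In the EGF family, 4 of 11 rose (36.4%) and 5 fell (45.5%). Of the 10 that averaged 5 counts or more in both groups, 3 were higher and 5 lower. The ligand HBEGF was at 10.9, 13.2 and 9.94 CPM in the EV libraries and 46.5, 42.7 and 32.8 CPM in the libraries labelled TAZ4SA (1.84 ± 0.14), the receptor ERBB3 at 0.863, 0.952 and 0.873 CPM in the EV libraries and 7.34, 10.3 and 8.63 CPM in the libraries labelled TAZ4SA (3.28 ± 0.21), and the ligand AREG, which averaged 5 counts in the TAZ4SA group alone, stayed under 1 CPM in every library. WNT genes gave 15 higher and 15 lower of 41 (36.6% each). WNT7B (3.67) and WNT5B (2.197) rose, while the receptors FZD1 (-1.81) and FZD4 (-1.46), the co-receptor LRP6 (-1.17) and the destruction complex gene APC (-1.696) fell. The Notch system gave 11 higher and 9 lower of 25 (9 and 11 under total-count scaling), with NOTCH1 (1.26) higher, JAG1 (-1.27) lower and the target HEY1 at 79.6, 81.3 and 72.2 CPM in the EV libraries and 11.1, 10.9 and 7.44 CPM in the libraries labelled TAZ4SA (-2.99 ± 0.17). HES1, another Notch target, was not called (-0.28 ± 0.17). Axon guidance genes gave 17 higher and 23 lower of 56, and 16 and 20 of the 51 that averaged 5 counts or more in both groups. Cadherins and junction proteins gave 20 higher and 11 lower of 54, and 16 and 10 of the 49 that averaged 5 counts or more in both groups. CDH4 was at 0.897, 1.45 and 1.21 CPM in the EV libraries and 34.5, 35.8 and 37.9 CPM in the libraries labelled TAZ4SA (4.93 ± 0.24). The tight junction gene CLDN1 was at 2.66, 2.44 and 2.62 CPM in the EV libraries and 22.5, 23.3 and 33.8 CPM in the libraries labelled TAZ4SA (3.37 ± 0.31).

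Among cell cycle lists, of 45 DNA replication genes, 3 rose and 8 fell, shares below the background of 25.5% and 24.9%. The 3 dropped to 1 without TAZ4SA replicate 1, TAZ4SA replicate 2, EV replicate 1 or EV replicate 3, and the 8 to 5 without TAZ4SA replicate 2 or EV replicate 1. The proliferation marker MKI67 was at 229, 214 and 198 CPM in the EV libraries and 186, 197 and 179 CPM in the libraries labelled TAZ4SA and was not called (-0.19 ± 0.13), although its groups did not overlap. Mitotic genes gave 17 higher and 8 lower of 39, an order that turned to 9 higher and 11 lower under total-count scaling. CDC20, an activator of the anaphase-promoting complex, was at 104, 105 and 100.5 CPM in the EV libraries and 219, 213 and 180.1 CPM in the libraries labelled TAZ4SA (0.98 ± 0.13), and AURKB (0.89) and AURKA (0.84) rose. The kinetochore motor CENPE was at 20.4, 10.5 and 11.5 CPM in the EV libraries and 5.98, 4.9 and 7.17 CPM in the libraries labelled TAZ4SA (-1.24 ± 0.40), and it, ASPM (-1.02) and CENPF (-0.72) were not called without TAZ4SA replicate 2 or EV replicate 1, nor CENPF without TAZ4SA replicate 1. The 8 fallen genes became 5 without TAZ4SA replicate 1, 4 without TAZ4SA replicate 2 and 2 without EV replicate 1. Genes of G1 control gave 7 higher and 4 lower of 17 (5 and 7 under total-count scaling). Of the 16 that averaged 5 counts or more in both groups, 6 were higher and 4 lower. CCND1 was at 132, 126 and 105 CPM in the EV libraries and 314, 321 and 259.9 CPM in the libraries labelled TAZ4SA (1.302 ± 0.12) and MYC at 25, 20.8 and 16.7 CPM in the EV libraries and 52.7, 52.4 and 58.7 CPM in the libraries labelled TAZ4SA (1.39 ± 0.27), both with groups apart. CCND2 had at most 2 counts in any EV library against 2.43, 3.79 and 6.83 CPM in TAZ4SA, at least 35.9-fold higher at the same floor. It averaged 5 counts or more in the TAZ4SA group alone, so the filter itself favoured this direction. RB1, the G1 brake, was at 127, 108 and 98.6 CPM in the EV libraries and 35.5, 37.4 and 42.8 CPM in the libraries labelled TAZ4SA (-1.52 ± 0.14, adjusted p = 2.5e-09, edgeR), and the inhibitor CDKN1B was not called (-0.06 ± 0.11). Cell death regulators gave 12 higher and 8 lower of 28 (8 and 9 under total-count scaling), including anti-apoptotic BCL2L1, at 84.6, 93.7 and 92.2 CPM in the EV libraries and 277, 262 and 257 CPM in the libraries labelled TAZ4SA (1.56 ± 0.08), and the death ligand TNFSF10, at 15.6, 18 and 17 CPM in the EV libraries and 4.67, 4.22 and 4.45 CPM in the libraries labelled TAZ4SA (-1.92 ± 0.33).

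Of 41 tested interferon-stimulated genes of 42 listed, 1 rose (MX1, 0.43, not called without TAZ4SA replicate 1 or EV replicate 1, and 2 rose without EV replicate 3) and 19 fell, with a median of -0.42 and 20 fallen without TAZ4SA replicate 3. IFIT1, an antiviral RNA-binding protein, was at 46.7, 44.1 and 38.3 CPM in the EV libraries and 11.8, 13.6 and 14.3 CPM in the libraries labelled TAZ4SA (-1.702 ± 0.19, adjusted p = 6.5e-08, edgeR), and IFIT2 at 27.8, 27.1 and 28.5 CPM in the EV libraries and 5.59, 5.92 and 7.63 CPM in the libraries labelled TAZ4SA (-2.12 ± 0.16). SAMD9, a restriction factor, was at 23, 15 and 21.3 CPM in the EV libraries and 3.39, 2.6 and 4.26 CPM in the libraries labelled TAZ4SA (-2.53 ± 0.31). IRF9, part of the interferon-activated transcription complex, fell too, whereas STAT2 (0.04 ± 0.09), ISG15 (0.14) and IRF7 (-0.05) were not called. Cytokines and NF-kB targets went both ways, 15 higher and 7 lower of 33 (12 and 7 of the 29 that averaged 5 counts or more in both groups). IL11 was at 1.35, 1.71 and 0.873 CPM in the EV libraries and 17.6, 17.1 and 13.5 CPM in the libraries labelled TAZ4SA (3.59 ± 0.22) and the chemokine CXCL12 at 8.9, 7.88 and 5.38 CPM in the EV libraries and 0.559, 0.682 and 0.499 CPM in the libraries labelled TAZ4SA (-3.68 ± 0.42). CCL2, at 25.1, 23.4 and 24.8 CPM in the EV libraries and 41.3, 35.3 and 17.1 CPM in the libraries labelled TAZ4SA, was not called (0.35 ± 0.22), with TAZ4SA replicate 3 below every EV library and the other TAZ4SA libraries above them, and it was called higher without that library.

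Zinc finger genes of chromosome 19, most of which encode KRAB repressors, had the largest share of fallen genes. Of 239 tested, 131 fell and 14 rose, with a median of -0.46, and 123 fell without TAZ4SA replicate 3. The 14 risen genes became 9 without TAZ4SA replicate 2 or EV replicate 2. ZNF235 was at 13.2, 11.9 and 10.2 CPM in the EV libraries and 3.51, 3.41 and 3.99 CPM in the libraries labelled TAZ4SA (-1.69 ± 0.18) and ZNF780A at 20.9, 15.9 and 19.4 CPM in the EV libraries and 5.43, 5.88 and 9.51 CPM in the libraries labelled TAZ4SA (-1.43 ± 0.22). Over all 1432 genes tested on chromosome 19, these included, 30.2% rose and 20.04% fell. These genes are similar in sequence, so single values are uncertain. Clustered protocadherins, which share exons within each cluster, gave 2 higher and 9 lower of 26, and 1 higher without TAZ4SA replicate 1, TAZ4SA replicate 2, EV replicate 1 or EV replicate 2. Of the 22 that averaged 5 counts or more in both groups, 2 were higher and 8 lower.

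The base composition of the transcripts moved with the direction of change. When protein-coding genes were divided into 5 groups of equal size by the GC content of their exons, 10.05% rose and 50.7% fell in the lowest group (29.2% to 40.9% GC), against 38.9% and 13.4% in the highest (58.5% to 74.8% GC). The median log2 fold change climbed from -0.36 to 0.19 across the groups. Without TAZ4SA replicate 3 the lowest group gave 8.13% and 54.4%. With offsets that remove the relation to GC content and length in each library, the 5 groups lay between 27.3% and 33.7% higher and between 24.01% and 29.8% lower. Under these offsets 112 zinc finger genes fell and 14 rose, with the median moving to -0.28, the interferon list had 19 fallen (median -0.35), mitotic genes went from 8 to 4 fallen, and the ATF4 response, contractile and ribosomal medians were 1.77, 0.87 and 0.37. Some other lists moved as well. Nuclear genes of oxidative phosphorylation went from 19 to 31 higher, and collagen-modifying genes from 5 to 9 fallen with 9 higher in both fits. The median of the hypoxia list went from 0.33 to 0.61. The part of base composition in the list results was not tested beyond these offsets. Among 5 groups by mean count, genes of the highest rose more often than they fell (42.8% against 17.8%).

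**Figure D4:**
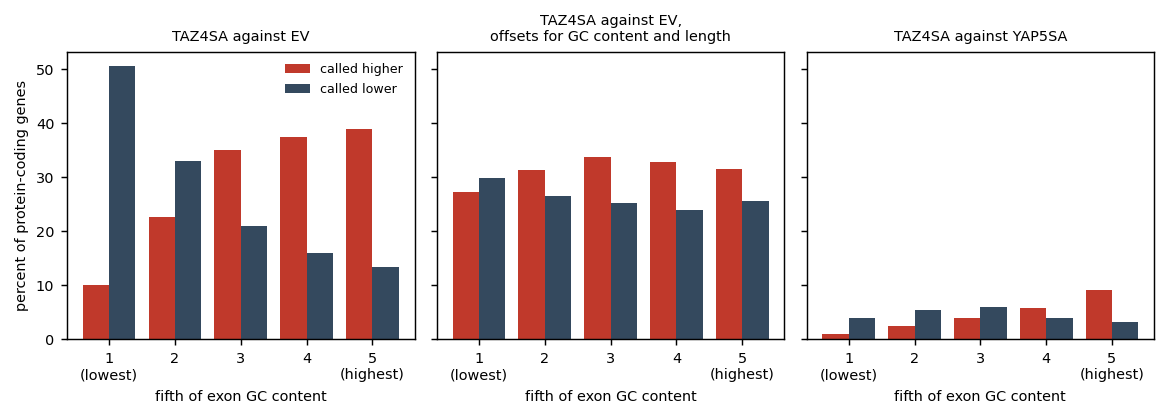
Percent of protein-coding genes called higher (red) or lower (dark) in 5 groups of equal size by exon GC content. In TAZ4SA against EV the share lower drops from 50.7% to 13.4% from the lowest to the highest group, the shares are closer together with the offsets, and TAZ4SA against YAP5SA shows 1.10% to 9.16% higher and 3.29% to 5.93% lower.

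Markers of other tissues were examined because epithelial keratins rose. In such bulk samples, a different number of cells of a type and a different amount of RNA per cell cannot be told apart. KRT8 was at 51.3, 48.7 and 41.6 CPM in the EV libraries and 992, 1065 and 912 CPM in the libraries labelled TAZ4SA (4.39 ± 0.19, adjusted p = 1.1e-14, edgeR) and its partner KRT18 at 161, 158 and 155 CPM in the EV libraries and 1059.99, 1069.7 and 964 CPM in the libraries labelled TAZ4SA (2.705 ± 0.15). The 8 epithelial markers summed to 198 to 216 CPM in EV and to 1877 to 2137 CPM in TAZ4SA. KRT14 and KRT19 stayed under 1 CPM in all 6 libraries, CDH1 had at most 1 count in any EV library and at most 1.07 CPM in TAZ4SA, and EPCAM fell by 1.09 on the log2 scale (not called without EV replicate 1, with overlapping groups). Of 8 endothelial markers 3 rose and 4 fell, with a median of -0.78. They summed to 248 to 301 CPM in EV and 384 to 480 CPM in TAZ4SA, with TIE1 at 87.5, 100.5 and 93 CPM in the EV libraries and 324, 315 and 255 CPM in the libraries labelled TAZ4SA (1.67 ± 0.13) and PECAM1 at 6.28, 7.43 and 7.27 CPM in the EV libraries and 2.31, 2.3 and 1.69 CPM in the libraries labelled TAZ4SA (-1.73 ± 0.17). Of 8 mesenchymal markers 2 rose and 4 fell, with a median of -0.58. They summed to 5666 to 6531 CPM in EV and 2400 to 3499 CPM in TAZ4SA, and FN1 alone ranged from 781 to 4513 CPM. S100A6 went up, at 183, 178 and 177 CPM in the EV libraries and 300, 304 and 245 CPM in the libraries labelled TAZ4SA. MME, the protease that degrades natriuretic peptides, was at 0.173, 0.228 and 0.0485 CPM in the EV libraries and 6.3, 8.09 and 8.44 CPM in the libraries labelled TAZ4SA and averaged 5 counts in the TAZ4SA group alone. Among 58 potassium channel genes 18 rose and 14 fell, but 7 of them averaged 5 counts in 1 group alone, and among the other 51 there were 12 higher and 13 lower. KCND3, a cardiac channel subunit, was at 0.138, 0.0762 and 0.0485 CPM in the EV libraries and 37.5, 47.1 and 56.7 CPM in the libraries labelled TAZ4SA, where the EV libraries held at most 4 counts. It averaged 5 counts or more in the TAZ4SA group alone.

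The direct test against YAP5SA showed where the mutants of TAZ and YAP differed. Over all genes 7.5% were called (730 higher and 742 lower in TAZ4SA). Of the 25 ATF4 response genes, 23 glycolysis genes and 23 synthetase genes, 0 were called, with medians of 0.00, -0.04 and 0.01. A gene not called is not shown to be equal: the difference was -0.16 ± 0.26 for ASNS and 0.05 ± 0.13 for SARS1. Among matrix and sterol genes the calls were 12 of 32 collagen chains (1 higher and 11 lower in TAZ4SA), 8 of 19 elastic fibre genes (all lower) and 14 of 31 cholesterol genes (2 higher, 12 lower). Other matrix lists were more mixed: 10 of 20 proteoglycans (3 higher, 7 lower), 9 of 23 adhesive glycoproteins (2 higher, 7 lower) and 8 of 22 integrins (3 higher, 5 lower). Matrix proteases and inhibitors had the opposite balance, with 10 of 27 called (7 higher, 3 lower).

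COL12A1 was at 130.2 ± 8.45 CPM in TAZ4SA and 631 ± 23.6 CPM in YAP5SA (mean ± SD, n = 3), a difference of -2.28 ± 0.12 (adjusted p = 5.5e-12, edgeR), while EV was at 45.3 ± 4.05 CPM. COL1A2 was at 27.7 ± 9.28 against 106 ± 38.3 CPM (-1.94 ± 0.24, adjusted p = 5.9e-06, edgeR). In the other direction, KCND3 was at 47.1 ± 9.62 against 6.96 ± 1.34 CPM (2.75 ± 0.22, adjusted p = 1.1e-08, edgeR), TIE1 at 298 ± 37.6 against 83.4 ± 11 CPM (1.84 ± 0.13), FLT4 at 20.03 ± 0.584 against 3.95 ± 0.953 CPM (2.33 ± 0.24) and MYC at 54.6 ± 3.51 against 29.8 ± 2.81 CPM (0.87 ± 0.27). The count of 1472 fell to 932 without TAZ4SA replicate 1, 964 without TAZ4SA replicate 2 and 941 without YAP5SA replicate 1.

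**Figure D5:**
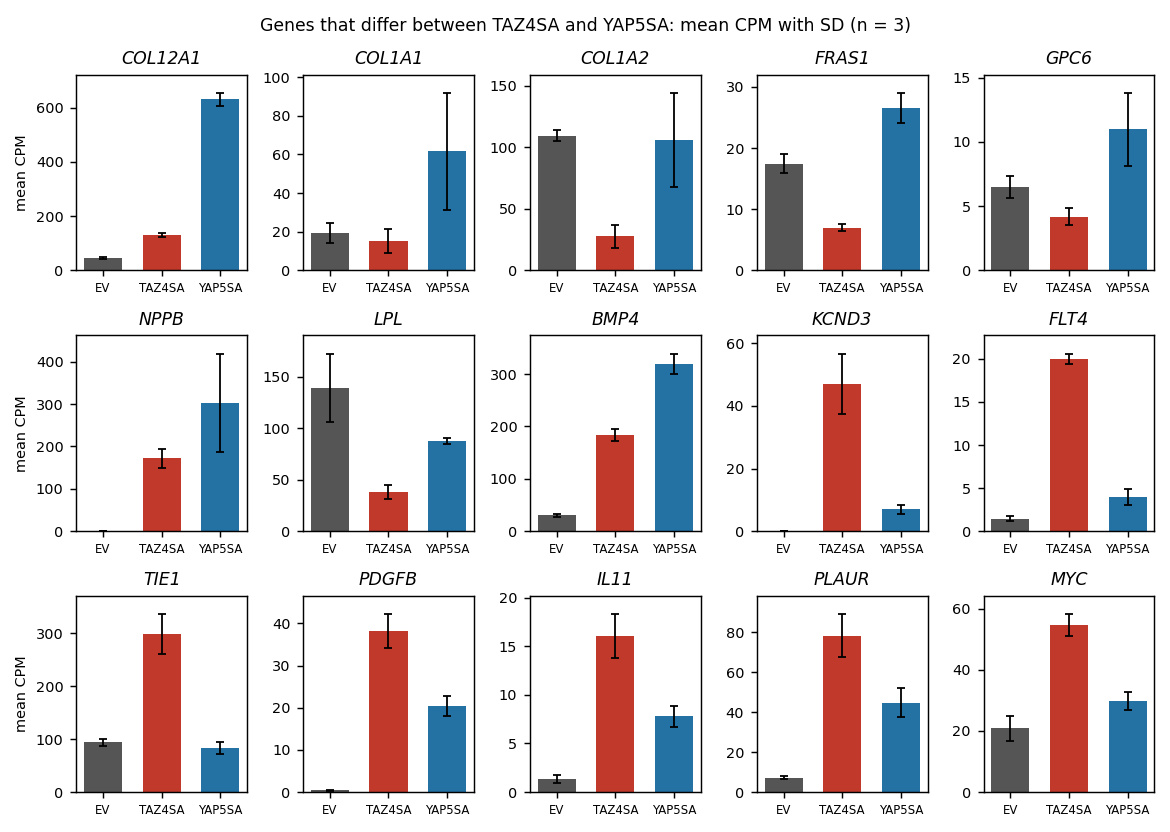
Mean CPM with SD (n = 3, linear axis from 0) of 15 genes called between TAZ4SA (red) and YAP5SA (blue), with EV in grey. The genes were chosen after their values were seen. In the first 8 panels YAP5SA is the higher mutant, as for COL12A1 (631 against 130 CPM), and in the last 7 TAZ4SA is, as for KCND3 (47.1 against 6.96 CPM).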

How the data were processed

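RNA of SW872 cells was read as stranded, paired-end libraries after selection for poly(A). The values are counts per gene as deposited, which the authors made with bcbio-nextgen on hg38. Their methods name both Hisat2 alignment and Salmon with tximport, and which of these routes gave the deposited counts is not given in the sources used here. The counting tool, strand setting and handling of shared reads are not given either. Counts of 24 libraries in 8 groups were fitted with edgeR 4.0.16 (R 4.3.3, TMM scaling, quasi-likelihood test, no replicate block), with Benjamini-Hochberg adjustment over 19627 genes and calls at an adjusted p under 0.05. CPM and folds rest on total counts of 19700277 to 27653531 per library.

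Genes were named by a rule: in each list, the called genes with the largest change, a mean of at least 100 counts and no overlap between groups, plus genes with a textbook role. Others were named after their values were seen. The members, lists and rule were chosen with earlier results of these data known. GC content, length and gene positions came from GENCODE 44 (98.1% of tested genes matched), and promoter windows of 250 bases before to 50 bases after the start from RefSeq. Of 195 genes named in the text, 28 share exonic bases with another gene on the same strand and 77 on the opposite strand, so their counts are uncertain. Same-numbered TAZ4SA and EV libraries did not deviate together, with correlations of -0.11, 0.04 and -0.00058. For TAZ4SA and YAP5SA these were 0.081, 0.135 and 0.391, all positive and largest for replicate 3. The main fit took the numbers as pairs in neither comparison. DESeq2 1.42.0, other scalings, filters, offsets, the replicate block and leaving out each library were tried as alternatives.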

Additional observations from a re-analysis of the deposited data

How the results depend on the processing

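The count of 9902 genes stayed within 1.5 times under every alternative but a test against a log2 change of 1, which called 1561 (1048 higher, 513 lower). Leaving out 1 library gave 8349 to 9467 genes (4286 to 4894 higher, 3977 to 4573 lower). A replicate block gave 9969 and, for TAZ4SA against YAP5SA, 1571. The labels state no shared batch or day and the numbers did not pair TAZ4SA with EV, so the block is given here alone. That reason does not cover TAZ4SA against YAP5SA, where same-numbered libraries had correlations of 0.081, 0.135 and 0.391. The main count of 1472 there has no block either. DESeq2 called 9683 genes. Against YAP5SA, leaving out 1 library gave 932 to 1328 genes. With offsets for GC content and length, 3 of the genes named changed sign: RPL7 to 0.10, MOB1A to 0.012 and SLC38A2, not called before, to 0.20 on the log2 scale, and with the replicate block as well to 0.10, 0.011 and 0.20. The cause was not tested beyond the offsets themselves. TMM against total-count scaling decides the balance of higher and lower calls, and which scaling is closer to RNA per cell cannot be told from these counts. With 3 libraries a group the median SE was 0.16, and the smallest change called was 0.16.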
